A study of Mus musculus with 4 samples.

Results

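Jchain-positive S100a6-positive B cells were identified cell by cell from unique molecular identifier (UMI) counts, that is, counts of single captured mRNA molecules. A cell was taken when it held at least 3 UMIs of Cd79a, at least 1 of Jchain and at least 1 of S100a6. It also had to hold 0 of Fcer2a and Adm, at most 2 of Vpreb3, at most 4 of Lyz2 and at most 1 of Cd3d, Cd3e and Cd3g together. The rule found 303 cells among 8898 B cells and 14588 cells in all. Of these, 291 were in old blood and 12 in young blood.

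The study profiled peripheral blood cells of C57BL/6 female mice at 4 months (young) and 24 months (old) by 10x Chromium single-cell RNA-seq. The labels name no transgene and no treatment. Blood of 2 mice was pooled per sample, which gave 2 young and 2 old pools, and cells were taken over a density medium with subsequent red cell lysis. The pool was the replicate (n = 2 per age), and a cell cannot be traced to its mouse. The 4 pools held between 2187 and 4642 cells and between 9521253 and 18658072 UMIs. Of all cell barcodes, 108 occurred in more than 1 pool, 8 of the cells carried such a barcode, and 0 of the cells shared one with one another.

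The joining chain, encoded by Jchain, links immunoglobulin monomers into IgM pentamers and IgA dimers, and its mRNA is abundant in antibody-secreting cells. B-1 cells are a self-renewing B cell lineage, frequent in body cavities, that secretes natural IgM and is marked in mouse by regulators such as Bhlhe41 and Zbtb32. Ctla4 encodes an inhibitory receptor best known from T cells, Ccr1 a chemokine receptor and Art3 a member of the ADP-ribosyltransferase family. S100a6 encodes a small calcium-binding protein.

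On the mouse genome GRCm38, the GENCODE annotation places Jchain at chr5:88519809-88527891 on the minus strand and S100a6 at chr3:90612882-90624181 on the plus strand. Ctla4 lies at chr1:60887000-60915832 on the plus strand, Ccr1 at chr9:123962124-123968692 on the minus strand and Art3 at chr5:92331827-92414628 on the plus strand. These intervals span whole genes, exons and introns included. Immunoglobulin genes are not among the 14697 genes listed (0 listed), so the isotype of these cells is not analysed here.

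The cells were B cells by their markers. Besides Cd79a, which the rule required, every other gene of the B lineage list, among them Cd79b, Ms4a1, Cd22, Pax5, Ebf1, Blk and Fcmr, had UMIs in the cells of young 1, old 1 and old 2. Ms4a1, which encodes CD20, had a UMI in 96.8% of the cells of old 1 and in 100% of those of old 2. The levels of the list were somewhat lower than in the other B cells. In each old pool 7 of the 8 genes compared lay below them (median log2 ratio -0.32 in old 1 and -0.38 in old 2), and 0 by 2-fold. Sdc1, which encodes the plasma cell surface protein CD138, was found in 0 of 155 cells of old 1 and 1 of 136 cells of old 2. Of the genes named as marking these cells besides Jchain, Ctla4, Ccr1 and Art3 were frequent in old 2 and rare or undetected in old 1. The named genes thus held in old 2 and not in old 1, and the cells are called here by the rule alone.

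The old pools held most of these cells, and they were not confined to 1 of them. Old 1 held 155 of 3349 B cells, which is 4.63% (95% exact binomial interval 3.94 to 5.40). Old 2 held 136 of 1522 B cells, which is 8.94% (7.55 to 10.5). Young 1 held 9 of 2019 B cells (0.446%, 0.204 to 0.845) and young 2 held 3 of 2008 (0.149%, 0.0308 to 0.436). Both old pools were above both young pools, and these intervals, like all those given for single pools, cover counting error only. The mean share was 0.298% ± 0.210 in young and 6.78% ± 3.05 in old blood (SD, n = 2 pools each).

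Because the cells were chosen with the pools in view, the test of this share is a description of size more than independent evidence. edgeR's quasi-likelihood test on cell numbers over 6 exclusive B cell classes gave a log2 change of 4.48, old over young, with a Benjamini-Hochberg adjusted p of 0.0025. Over the alternatives the adjusted p ranged from 8.1e-04 to 0.46. The two-sided exact permutation test of the 4 percentages gave p = 0.333, the smallest value that 6 labellings allow. The call was lost without young 1 (adjusted p = 0.42 by the same edgeR test) and without young 2 (adjusted p = 0.46).

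**Figure D1:**
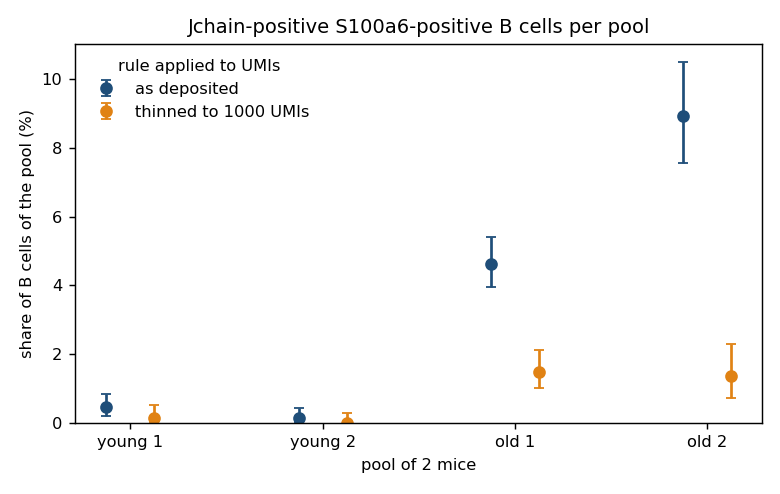
Share of B cells (y axis, percent) that met the rule in each pool (x axis). Blue points use UMIs as deposited and orange points use cells thinned to 1000 UMIs, and bars are 95% exact binomial intervals. Both old pools lie above both young pools on either scale, and old 2 lies above old 1 only as deposited.

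The share depended on how many UMIs a cell held. To set cells at equal depth, 1000 UMIs were drawn from each of them, which no cell fell short of, and the whole rule, the Cd79a minimum included, was applied again. It then found 30 of 2018 B cells in old 1 (1.49%, 1.01 to 2.12) and 13 of 966 in old 2 (1.35%, 0.718 to 2.29). There were 2 of 1361 in young 1 (0.147%, 0.0178 to 0.530) and 0 of 1322 in young 2 (upper bound 0.279%). The higher share of old 2 over old 1 among all B cells was thus not seen when the rule was applied again to thinned cells. Among thinned B cells that met the rest of the rule, the share was 3.90% in old 2 (2.09 to 6.58) and 2.92% in old 1 (1.98 to 4.14). Thinning acts on every gene of the rule, S100a6 included, so the part of Jchain alone was not tested. With cells that met the rest of the rule classed before thinning, Jchain remained in 39 of 707 in old 2 and 51 of 1848 in old 1. That is a higher share in old 2, and the difference was not tested. On the thinned cells edgeR's quasi-likelihood test gave a log2 change of 4.10 with adjusted p = 0.11, which misses the threshold of 0.05.

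The cells themselves were rich in UMIs. Their median was 5824 UMIs in young 1, 4583 in young 2, 4398 in old 1 and 6347.5 in old 2, against 2115.5, 2099, 3054 and 3026 in the other B cells of the same pools. Among B cells that met the rest of the rule but held no Jchain UMI (the Jchain-zero cells), the medians were 3082, 2704.5, 4013 and 3985. Above the 96th percentile of UMIs of their pool stood 3 of the 9 cells of young 1 (33.3%), 0 of young 2, 12 of old 1 (7.74%) and 25 of old 2 (18.4%). Among the Jchain-zero cells these shares were 6.03%, 8.94%, 4.37% and 2.28%. The part of doublets and of cell size in this was not tested.

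Jchain itself was at a low count in nearly all of these cells. A single Jchain UMI was the whole evidence in 96 of 155 cells of old 1 (61.9%) and 57 of 136 cells of old 2 (41.9%), and in 6 of 9 and 2 of 3 cells of the young pools. At least 2 UMIs were held by 59 cells of old 1 and 79 of old 2. RNA free in the suspension can give such UMIs. Fcer2a-positive B cells were set beside them, a class with no limit on S100a6 and so not purely naive. Of 2571 B cells of old 1 with S100a6, 2190 held no Fcer2a, and the rest were in this class. Jchain had a UMI in 0.334% of its cells in young 1 and 0.708% in young 2. In old 1 it was found in 16 of 697 cells and in old 2 in 5.03%, at median depths of 2169 to 2384.5 UMIs. In T cells the shares were 0%, 0.824%, 0% and 1.17%, at median depths of 2576 to 2800.5 UMIs, and 0 of 906 and 0 of 225 T cells allow shares of up to 0.406% and 1.63%. Among B cells that met the rest of the rule, Jchain was found in 3.09%, 1.20%, 8.39% and 19.2%. The intervals of young 1 and of both old pools lay above those of the Fcer2a-positive cells (old 2: 16.4 to 22.3% against 2.96 to 7.93%), whereas those of young 2 overlapped (0.249 to 3.48% against 0.260 to 1.54%). At 1000 UMIs the shares were 2.92% against 0.717% in old 1 and 3.90% against 1.18% in old 2, where the intervals overlapped. The 2 sides were classed differently here. The rest of the rule was applied again after thinning, whereas the Fcer2a-positive cells were classed before it. With both classed before thinning, Jchain remained in 51 of 1848 against 5 of 697 cells in old 1. In old 2 it remained in 39 of 707 against 4 of 338 cells.

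At the edges of the rule, 161 cells held exactly 1 Jchain UMI, and 2792 cells stood just outside with 0. For S100a6, 25 cells stood at 1 UMI and 29 just outside at 0. For Fcer2a, 27 cells stood just outside with 1 UMI. Of the 41 cells with 1 Cd3 UMI, 31 were in old 2, and 2 cells stood just outside with 2. The steps for Cd79a, Adm, Vpreb3 and Lyz2 had between 1 and 7 cells just outside.

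Of all 303 cells, 2 carried far more Jchain than the rest. They were picked out after their values were seen. One, in young 2, held 238 Jchain UMIs of 5315, with 55 UMIs of Mzb1, a chaperone of immunoglobulin assembly, 3 of Sdc1 and 0 of Ms4a1. The other, in old 2, held 177 Jchain UMIs of 6956, with 55 of Mzb1, 12 of Tnfrsf17, the receptor BCMA of plasma cells, and 1 of Ms4a1. The next highest cell held 22 Jchain UMIs and 26 of Ms4a1. Without the highest cell of each pool, the summed Jchain level was 292 UMIs per 1000000 UMIs of the same cells (CPM) in young 1, 273 in young 2, 372 in old 1 and 373 in old 2. With it the levels were 316, 18971, 385 and 536 CPM. The rule requires Jchain in each cell, so these levels describe how it was spread among the cells chosen, and all levels of the young 2 cells rest on 3 cells.

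Genes of antibody secretion were looked at by name and as lists. Mzb1 stood at 1432 CPM in the cells of old 1 and 1497 CPM in those of old 2, against 1010 and 936 CPM in the other B cells. Xbp1, the transcription factor that drives secretory expansion, stood at 36.3 and 33.7 CPM against 43.3 and 39.9 CPM. Prdm1, which encodes Blimp-1, was at 20.7 and 9.37 CPM against 8.19 and 7.58 CPM. The list of endoplasmic reticulum and unfolded-protein genes had a median log2 ratio to the other B cells of 0.04 in old 1 (29 genes) and -0.04 in old 2 (31 genes), equal to the medians over all genes compared. The plasmablast and plasma cell list, without Jchain, had a median of 0.31 in old 1 (4 of 5 genes above 0) and 0.20 in old 2 (4 of 6), and 0 of its genes differed by 2-fold.

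Ctla4, Ccr1 and Art3 separated the 2 old pools. These 3 genes helped to name the cells, so their levels are given as a description with no test. Ctla4 had a UMI in 62.5% of the cells of old 2 (85 of 136) and in 17 of 155 cells of old 1, and in 13.2% and 1.29% at 1000 UMIs. Its level was 136 CPM in old 2 (95% exact Poisson interval 115 to 160), 28.5 CPM in old 1 (17.9 to 43.2), and 2 UMIs, or 37.1 CPM, in the 9 cells of young 1 (4.50 to 134). Its level in old 2 was thus above that in old 1, and the wide young 1 interval covered the old 1 level.

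Ccr1 was at 95.6 CPM in the cells of old 2 (78.0 to 116) and at 2.59 CPM in those of old 1 (0.314 to 9.37), where 2 cells held it. Art3 was at 30.0 CPM in old 2 (20.5 to 42.4) and had 0 UMIs in the 155 cells of old 1 (upper bound 4.78 CPM). Taking the 3 genes as a set, 80.1% of the cells of old 2 held at least 1 of them and 47.1% held at least 2. In old 1 the shares were 11.6% and 0.645%, in young 1 4 of 9 cells held at least 1, and in young 2 0 of 3 did. These shares were not set at equal depth, and the cells of old 2 were deeper (median 6347.5 UMIs) than those of old 1 (4398).

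These genes were not particular to cells with Jchain. Among the Jchain-zero cells of old 2, 41.9% held at least 1 of the 3 genes, against 10.2% in old 1. Among Fcer2a-positive B cells the shares were 13% in old 2 and 2.01% in old 1. In old 2 these 2 classes were shallower (medians of 3985 and 2384.5 UMIs) than the cells with Jchain (6347.5), and the part of depth in the shares was not tested. Ccr1 was as high in the Jchain-zero cells of old 2 (95.9 CPM, 84.3 to 109) as in the cells with Jchain. Ctla4 was at 66.2 CPM (56.7 to 76.9) and Art3 at 11.9 CPM (8.11 to 16.9) in the Jchain-zero cells of old 2, both below the cells with Jchain. Of the B cells of old 2 that held Ctla4, 85 of 268 (31.7%) met the rule, and of those that held Art3, 30 of 85 (35.3%).

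**Figure D2:**
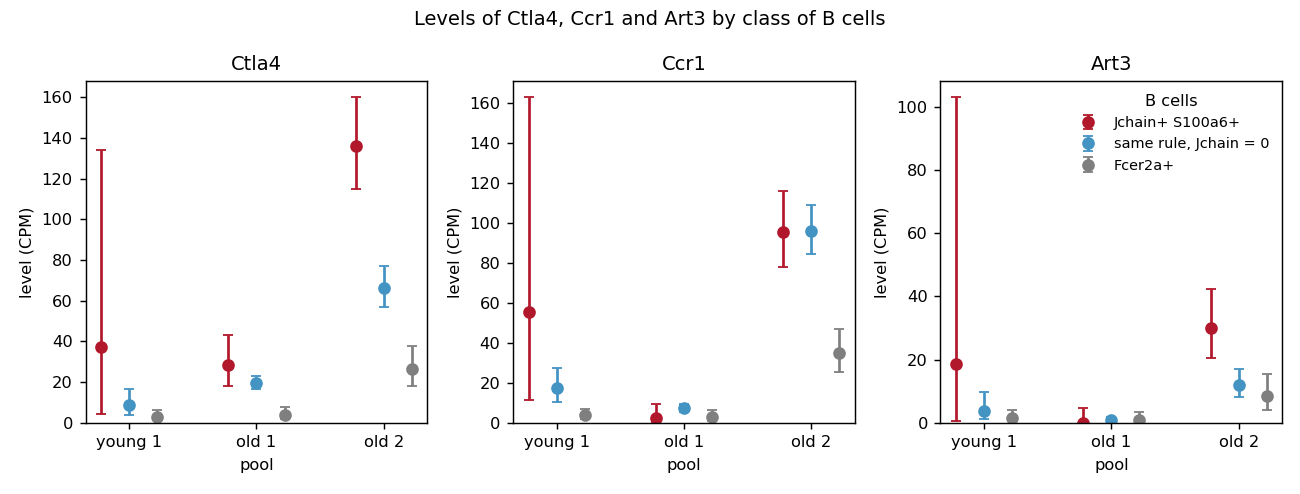
Summed level (y axis, CPM) of Ctla4, Ccr1 and Art3 by pool (x axis) in Jchain-positive S100a6-positive B cells (red), cells that met the same rule with 0 Jchain (blue) and Fcer2a-positive B cells (grey), with 95% exact Poisson intervals. All 3 genes are higher in old 2 than in old 1 in each class, and young 2 is not drawn because it held 3 cells.

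Genes of the B-1 list were mostly at higher levels than in other B cells in both old pools, and near the levels of the Jchain-zero cells. Zbtb32, a transcription factor of B-1a and memory B cells, had a UMI in 72.9% of the cells of old 1 and 70.6% of those of old 2, against 44.9% and 29.3% of other B cells. Its level was 314 and 203 CPM against 269 and 150 CPM. Bhlhe41, a regulator of B-1a cells, was at 162 CPM in old 1 and 75.9 CPM in old 2, against 126 and 61.9 CPM in other B cells. In the Jchain-zero cells Zbtb32 was at 323 and 234 CPM and Bhlhe41 at 163 and 69.3 CPM, so neither gene was higher in the cells with Jchain beyond counting error. Plscr1, which encodes a phospholipid scramblase, was at 144 and 233 CPM against 82.8 and 142 CPM.

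Of the 16 genes of the list, 9 passed the filter on low values in each old pool. All 9 were above 0 in old 1 (median log2 ratio 0.37) and 7 of 9 in old 2 (0.50), and 0 differed by 2-fold. Against the Jchain-zero cells the medians were 0.19 in old 1 and 0.15 in old 2. Cd5, the surface marker of B-1a cells, was found in 1 of 155 cells of old 1 (0.645%) and 6 of 136 of old 2 (4.41%). Other B cells held Cd5 in 1.10% and 1.37% of cells. The list was chosen with earlier results of these data known and holds Ctla4, Ccr1 and Art3, so it is not independent evidence of a B-1 identity. Nor was the B-1 list alone in lying above the other B cells. The marginal zone list had 5 of 5 genes above 0 in old 1 (median log2 ratio 0.39) and 2 of 4 in old 2 (0.22). Against the Jchain-zero cells its medians were 0.21 and -0.04. Of the 8 age-associated B cell genes, 2 passed the filter in each old pool, and they went opposite ways. Fcrl5 lay above other B cells (log2 0.18 in old 1 and 0.61 in old 2) and Zeb2 below (-0.41 and -1.53). Itgax was at 0 UMIs in both old pools and Tbx21 at 1 UMI in each.

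In old 1, the pool with the most cells, the cells were set against the other B cells gene by gene. Levels were compared as log2 ratios of CPM + 10 among genes with a UMI in at least 10% of either class, with no test because there is 1 pool. Of 4590 genes, 0 were higher by 2-fold or more (0%) and 25 were lower (0.545%). These counts were 21 and 61 with 1 CPM added in place of 10, and 39 and 75 for cells with at least 2 Jchain UMIs. The highest ratios were those of Gm10709 (24.6 against 8.35 CPM, log2 0.92) and Marcks, a substrate of protein kinase C (132 against 66.4 CPM, log2 0.90). Cyp11a1, which encodes the first enzyme of steroid synthesis, was at 81.7 against 41.3 CPM, a ratio of 1.98 (1.50 to 2.57).

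The genes that were lower in old 1 included a homing receptor and surface proteins of B cells. Ccr7, the lymph node homing receptor, was at 13 against 78.1 CPM (log2 -1.94). Ms4a4c was at 15.6 against 115 CPM, and Cd72, an inhibitory coreceptor of the B cell receptor, at 13 against 98.7 CPM (log2 -2.24). The rule removes Fcer2a-positive cells, in which Cd72 stood at 189 CPM, so the rule itself bears on this difference. Against the Jchain-zero cells, which meet the same rule, Cd72 was still at 13 against 59.5 CPM (log2 -1.60).

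In old 2, of 5358 genes, 26 were higher by 2-fold or more (0.485%) and 61 lower (1.14%), and 85 and 103 with 1 CPM added. Ctla4, which helped to name the cells, was among the 26. The top gene was Epcam, an epithelial cell adhesion molecule, at 112 CPM (92.4 to 133) against 20.1 CPM (16.5 to 24.3), a ratio of 5.54 (4.23 to 7.25). It was followed by Lmo7 (92.8 against 26.4 CPM, log2 1.50), Oosp1 (81.6 against 23.1 CPM, log2 1.47) and Zcwpw1, a histone methylation reader (454 against 163 CPM, log2 1.42). Socs3, a feedback inhibitor of cytokine signalling, was at 259 against 99.8 CPM, and Psmd14, a proteasome deubiquitinase, at 649 against 251 CPM. Cyp11a1 was at 183 against 71.0 CPM, a ratio of 2.58 (2.16 to 3.07).

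The genes lower in old 2 overlapped with those of old 1, and the removal of Fcer2a-positive cells by the rule bears on both. Ms4a4c was at 14.1 against 142 CPM (log2 -2.66), Ccr7 at 29.1 against 193 CPM (log2 -2.38), Chchd10 at 17.8 against 120 CPM (log2 -2.22) and Cd72 at 34.7 against 166 CPM (log2 -1.98). Lgals1, which encodes galectin-1, was at 81.6 against 312 CPM in old 2 (log2 -1.82) and differed little in old 1, at 678 against 736 CPM (log2 -0.12). Lgmn, a lysosomal protease, was at 6.56 against 80.0 CPM in old 2 (log2 -2.44).

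Among the 4326 genes compared in both old pools, 12 were lower by 2-fold in both, which is 48.0% of the 25 of old 1 and 23.1% of the 52 of old 2. They included Ccr7, Cd200, Cd72, Chchd10, Cnn3, Hvcn1, Il21r, Klhl6, Lgmn, Ms4a4c and Plaur. Of the 52 genes lower by 2-fold in old 2, 45 lay below 0 in old 1 (median log2 ratio -0.63). Of the 16 genes higher by 2-fold in old 2, Ctla4 among them, 14 lay above 0 in old 1 (median 0.41), where no gene was higher by 2-fold.

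**Figure D3:**
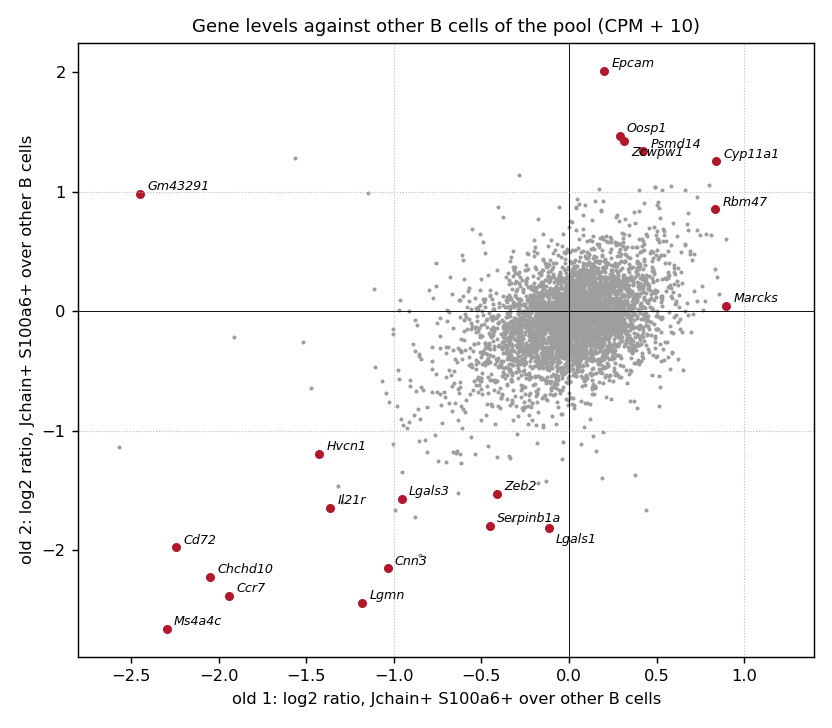
Log2 ratio of CPM + 10 between Jchain-positive S100a6-positive B cells and the other B cells of the pool, in old 1 (x axis) and old 2 (y axis), 1 point per gene, with dotted lines at 2-fold. Ms4a4c, Ccr7, Chchd10 and Cd72 lie low on both axes, Epcam lies high in old 2 only, and Gm43291 and Lgals1 leave the diagonal.

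The contrast with other B cells was tested in young 1 and old 2, with both sums of a pool kept as a block. The pool with the most cells, old 1, was left out of the test by the design, and young 2 held fewer than 5 cells. The test has 1 residual degree of freedom and rests on 9 cells of young 1. Old 2 is also the pool that carries Ctla4, Ccr1 and Art3, so the calls are not independent of how the cells were proposed. edgeR's quasi-likelihood test with Benjamini-Hochberg adjustment called 29 of 4401 genes, 8 higher (0.182%) and 21 lower (0.477%). Scaled by DESeq2's size factors instead of TMM, the same test called 50 higher and 47 lower.

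The 8 higher genes were Epcam, Oosp1, Lmo7, Tmem176a, Krt8, Tmem176b, Psmd14 and Gsto1. In young 1 the level of each of them except Psmd14 rested on 1 or 2 UMIs. Epcam was at 37.4 against 11.1 CPM in young 1 and at 112 against 20.2 CPM in old 2, which is a rise of 2.46 in log2 units (SE 0.27, edgeR adjusted p = 0.013). Its adjusted p ranged from 1.7e-12 to 0.32 over the edgeR and DESeq2 fits tried. Lmo7 rose by 1.89 (SE 0.26, edgeR adjusted p = 0.022, range 4.3e-07 to 0.62). Tmem176a and Tmem176b, neighbouring genes of membrane proteins, rose by 1.82 and 1.60. In old 1 Tmem176a was at 1.30 against 5.04 CPM, and Tmem176b at 7.78 against 7.09 CPM. Krt8, a keratin, rose by 1.83 in this test, whereas in old 1 it stood below other B cells (24.6 against 92.5 CPM).

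The 21 lower genes included coreceptors and receptors of mature B cells. The other B cells include Fcer2a-positive cells and cells without S100a6, which the rule removes, so the rule itself bears on these falls. In the same fit against the Jchain-zero cells, Ms4a4c fell by 2.27 and Ccr7 by 1.52, whereas Ebf1 was not called. Against all other B cells, Ms4a4c fell by 3.20 (SE 0.30, edgeR adjusted p = 0.011, range 7.3e-26 to 0.31) and was lower in both pools, at 37.4 against 251 CPM in young 1. Cd72 fell by 2.07 (SE 0.27, edgeR adjusted p = 0.021, range 6.8e-19 to 0.31). Chchd10 fell by 2.61 and Ccr7 fell by 2.27. Tnfrsf13c, the receptor for the survival factor BAFF, fell by 1.50, and Il21r, the interleukin-21 receptor, fell by 2.16. Ebf1, a transcription factor of B cell identity, fell by 1.01, at 560 against 1360 CPM in young 1 and 558 against 1080 CPM in old 2. Without the pool as a block, edgeR called 0 genes in either direction, with 353 at an unadjusted p under 0.05.

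With old 1 added, edgeR called 105 of 4245 genes, 38 higher (0.895%) and 67 lower (1.58%), and 22 of the 29 genes were among them. Of the B-1 list, 4 of 9 tested genes rose (Plscr1, Tppp3, Nfatc1 and Rbm47) and 0 fell, where the test of 2 pools called 0 of 8, with all 8 above 0 and a median of 0.74. Against the Jchain-zero cells 0 of 9 were called by edgeR, with or without old 1 (median 0.19 in each). Of 4 tested marginal zone genes, 2 rose (Plac8 and Mzb1) and 0 fell, where the test of 2 pools called 0 of 4 (median 0.53). Of the 13 tested genes of MHC class II presentation, 3 fell (H2-Ab1, H2-DMb1 and H2-Oa) and 0 rose, where the test of 2 pools called 0 and had all 13 below 0 (median -0.37). Against the Jchain-zero cells 0 of 13 were called without old 1 (median -0.20), and with it H2-DMb1 alone fell (median -0.31). The rule removes Fcer2a-positive cells, in which the list summed to 43796 CPM in old 1 against 24378 in the Jchain-zero cells, so the rule itself bears on this difference. Of 5 tested follicular genes, 2 fell, Ccr7 among them. Cyp11a1 rose by 1.27 (SE 0.19) and Mzb1 by 0.79 (SE 0.14). These counts include old 1, the pool left out above.

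H2-Ab1, a class II chain, gives the size of the class II difference. It was at 2098 CPM in the cells of old 1 (1997 to 2202) and 3473 CPM in those of old 2 (3362 to 3587), against 3424 and 5088 CPM in other B cells. In young 1 it was at 3471 against 4970 CPM. The cells were thus lower than other B cells in each of the 3 pools, and the Jchain-zero cells lay between, at 2811 CPM in old 1 and 4595 CPM in old 2.

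Marker genes of other cells were looked at beside these results. The T cell list (7 genes listed) summed to 31.1 CPM in the cells of old 1 and 73.1 CPM in those of old 2, against 47.5 and 56.4 CPM in other B cells and 4555 and 4827 CPM in T cells. Cd3g had a UMI in 14.7% of the cells of old 2 and 3.82% of its other B cells, and in 0.735% and 0.866% at 1000 UMIs. The rule allows 1 Cd3 UMI, and the part of T cell RNA in the Ctla4 level was not tested.

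The monocyte list (10 genes) summed to 1016 and 577 CPM in the cells of old 1 and old 2, against 934 and 686 CPM in other B cells. The platelet list (6 genes) summed to 390 and 147 CPM against 507 and 372 CPM. The red cell list (5 genes) summed to 34110 and 23272 CPM against 52506 and 49090 CPM, and its 4 globin genes, Hba-a1, Hba-a2, Hbb-bs and Hbb-bt, were among the 21 genes called lower. The NK cell list (7 genes) summed to 23.3 and 15 CPM. Siglech, a defining gene of plasmacytoid dendritic cells, which also express Jchain, was in 1 cell of old 1, with 10 UMIs, and in 0 of old 2.

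Against the Jchain-zero cells the classes differ by Jchain alone in the rule. In old 1, 1 of 4614 genes was higher by 2-fold (0.0217%) and 8 lower (0.173%). In old 2, 10 of 5368 were higher (0.186%) and 43 lower (0.801%). Epcam was the highest gene in old 2, at 112 against 26.9 CPM (log2 1.72). The lowest were Lgals1 (81.6 against 484 CPM, log2 -2.43), Lgmn (log2 -2.06) and Lgals3, which encodes galectin-3 (30.0 against 155 CPM, log2 -2.04).

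The same test as above, young 1 and old 2 with the pool as block, called 94 of 4665 genes, 37 higher (0.793%) and 57 lower (1.22%). The number of calls differed widely between settings. With both old pools alone, a fit chosen after seeing the data, edgeR called 101 genes, 63 of the 94 among them. DESeq2 called 1 gene and edgeR called 0 of the genes found in at least 10% of the cells of each class, where 335 had an unadjusted p under 0.05. With old 1 added, edgeR called 14 of 4470 genes higher (0.313%) and 24 lower (0.537%). Epcam rose by 2.02 and was called in 7 of 9 settings (edgeR adjusted p = 2.1e-11, range 4.5e-12 to 1.0). Lgals1 fell by 1.68 and was called in 6 of 10 settings (edgeR adjusted p = 4.6e-10, range 2.1e-13 to 1.0), yet in young 1 it was higher in the cells with Jchain, at 501 against 321 CPM. The fit has 1 residual degree of freedom, and the cells held 1061663 UMIs in old 2 against 53537 in young 1. These adjusted p-values thus do not show that both pools moved alike.

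Within the cells that met the rest of the rule, several genes moved with the number of Jchain UMIs. The genes were chosen after their values were seen, and cells with more Jchain were deeper in old 2 (medians of 3985, 4955 and 7660 UMIs for 0, 1 and at least 2 Jchain UMIs) but not in old 1 (4013, 4427 and 4166). Epcam was at 26.9, 82.1 and 126 CPM in old 2, and at 13.6, 21.7 and 37.9 CPM in old 1. At 1000 UMIs Epcam was found in 1.93%, 5.26% and 15.2% of the cells of old 2, and in 1.71%, 1.04% and 5.08% of those of old 1. Zcwpw1 was at 240, 283 and 538 CPM in old 2 and at 286, 364 and 512 CPM in old 1. Both genes were at higher CPM with more Jchain in each old pool, whereas the thinned share of Epcam in old 1 had no such order and rested on 1 and 3 cells among those with Jchain.

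Other genes changed at the first Jchain UMI. Cd72 was at 105, 39.6 and 32.2 CPM in old 2, and at 59.5, 13.8 and 11.4 CPM in old 1. Ms4a4c was at 73.5, 14.2 and 14.0 CPM in old 2, and at 49.6, 15.8 and 15.2 CPM in old 1. Lgals1 dropped in old 2, at 484, 62.3 and 91.1 CPM, and much less in old 1, at 840, 689 and 656 CPM. Ccr1 showed no such order in old 2, at 95.9, 122 and 82.7 CPM.

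**Figure D4:**
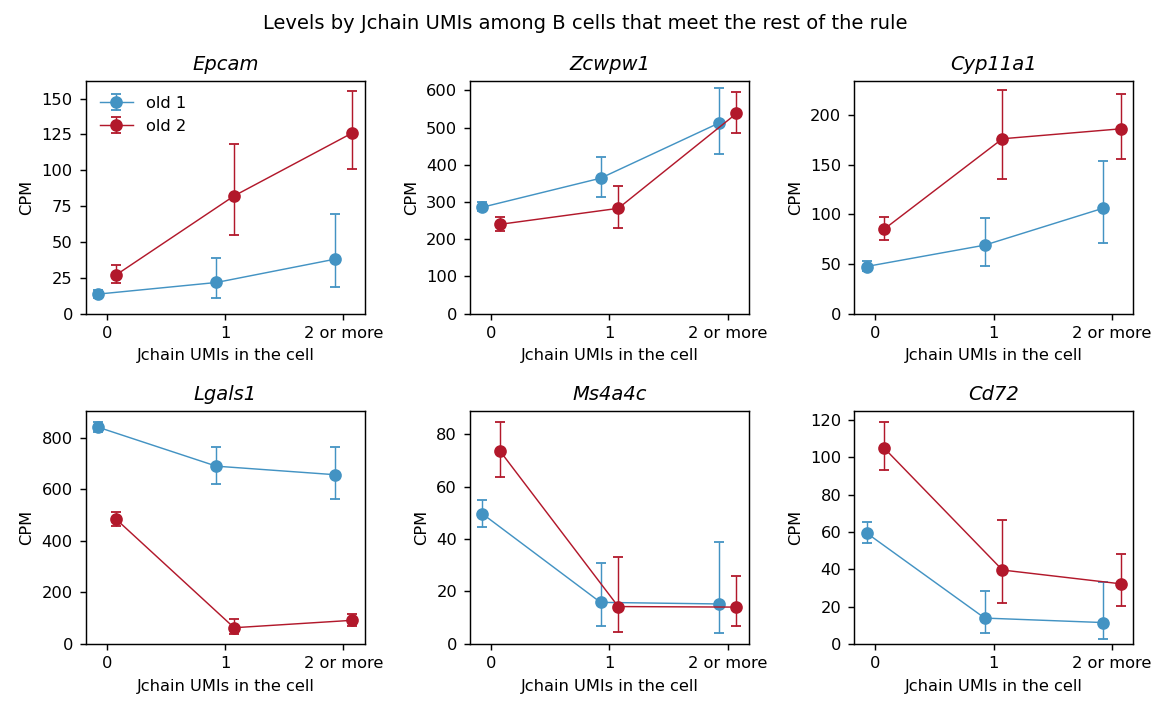
Summed level (y axes, CPM) of 6 genes by number of Jchain UMIs in the cell (x axes) among B cells that met the rest of the rule in old 1 (blue) and old 2 (red), with 95% exact Poisson intervals. Epcam, Zcwpw1 and Cyp11a1 have higher CPM in cells with more Jchain, whereas Ms4a4c and Cd72 are lower from the first Jchain UMI on and Lgals1 is so mainly in old 2.

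More genes differed by 2-fold between the cells of the 2 old pools than between either and its own other B cells. Of 5558 genes, 105 were higher by 2-fold in old 2 (1.89%) and 193 lower (3.47%), with a median log2 ratio of -0.11 over all genes. Ctla4, Ccr1 and Art3 were counted here too. With 1 pool on each side there is no test, and animals and library cannot be told apart. Both sides of this contrast were sums of few cells (155 and 136), whereas the other B cells numbered 3194 in old 1 and 1386 in old 2. The part of counting error in the larger number of genes was not tested. Gm43291 was at 378 CPM in old 2 and 6.48 CPM in old 1. Gadd45g, a growth arrest and stress gene, had 183 UMIs in old 2 (172 CPM, 148 to 198) and 1 UMI in old 1 (1.30 CPM, 0.0328 to 7.22). Socs3 was at 259 against 11.7 CPM, a ratio of 22.2 (11.5 to 49.0).

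Other genes were far higher in old 1. Ass1, which encodes argininosuccinate synthase, was at 459 CPM in old 1 and 22.5 CPM in old 2, a ratio of 20.4. Anxa2, an annexin, was at 253 and 17.8 CPM, and Lgals1 at 678 and 81.6 CPM. S100a6 itself, which the rule used, was at 3875 CPM in old 1 and 1237 CPM in old 2. Of the 15 genes of the S100, annexin, galectin and LIM list compared, 14 were lower in old 2 and 5 of them by 2-fold (median log2 ratio -0.76).

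Part of this difference was shared by other B cells of the same pools. Among the Jchain-zero cells, 43 of 4310 genes were higher by 2-fold in old 2 (0.998%) and 38 lower (0.882%). Among Fcer2a-positive B cells, 13 of 3437 were higher (0.378%) and 9 lower (0.262%). Ass1 was lower in old 2 in each class, with log2 ratios of -3.85 in the cells with Jchain, -1.83 in the Jchain-zero cells and -1.66 in the Fcer2a-positive cells. Socs3 was higher in each, with 3.63, 2.50 and 1.74. Whether the ratios, or the numbers of genes past 2-fold, differed between the classes beyond counting error was not tested.

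**Figure D5:**
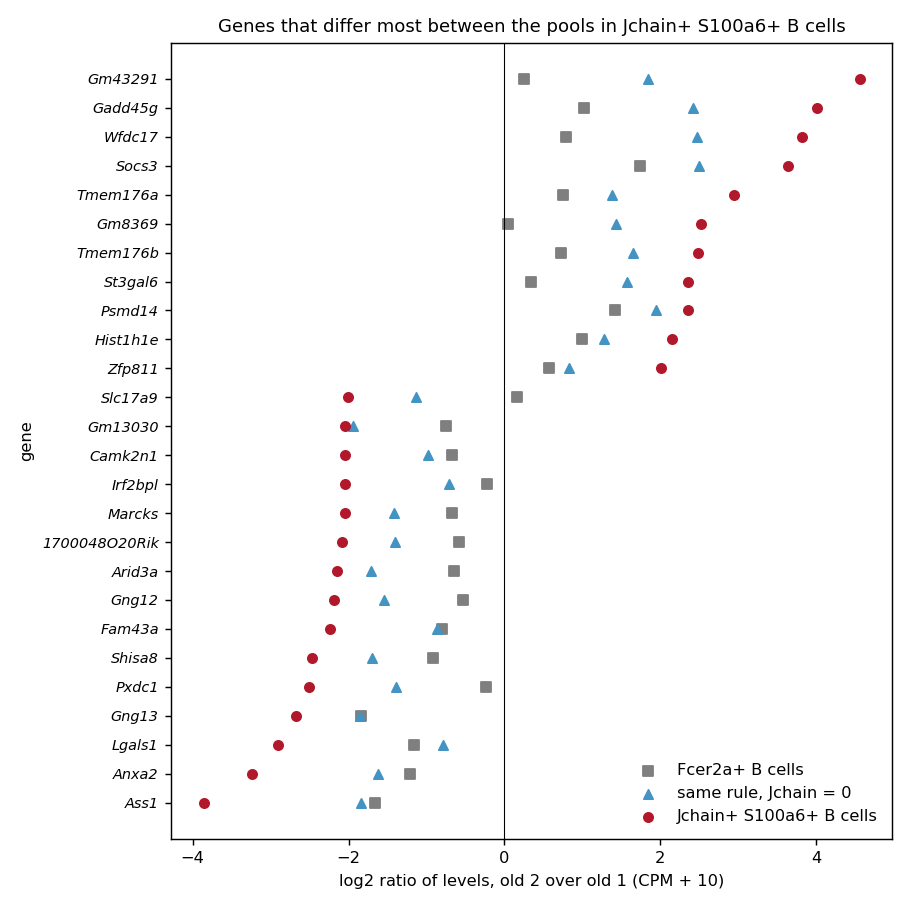
Log2 ratio of CPM + 10, old 2 over old 1 (x axis), of the genes that differed most between the pools in Jchain-positive S100a6-positive B cells (red circles), with the same ratio in cells that met the rule with 0 Jchain (blue triangles) and in Fcer2a-positive B cells (grey squares). Ctla4, Ccr1 and Art3 are among the genes not drawn, and the red circles lie farthest from 0 for every gene drawn, since the genes were picked by them.

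A test of age within these cells was not made, since young 2 held 3, fewer than the minimum of 5 set per pool. In the 9 cells of young 1, Zbtb32 was at 186 CPM (89.0 to 341) and Zcwpw1 at 353 CPM (212 to 551), against 44.8 and 28.5 CPM in other B cells of that pool. Plac8, which is high in marginal zone B cells, was at 3879 CPM (3371 to 4442) against 1116 CPM. Socs3 and Gadd45g had 0 UMIs (upper bound 68.5 CPM). Zbtb32, Zcwpw1 and Plac8 thus stood above the other B cells beyond counting error in young 1, and Socs3 and Gadd45g were not detectable at this depth. The B-1 list, which holds Zbtb32, summed to 1132 CPM in these cells, 945 in the Jchain-zero cells and 375 in other B cells of young 1. The marginal zone list, which holds Plac8, summed to 5327, 2853 and 1855 CPM. Both lists were thus also higher than in other B cells without Jchain.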

How the data were processed

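UMI counts of 14697 genes in 14588 cells were used as deposited by the authors, who made them from 10x Chromium libraries with Cell Ranger on the mm10 reference, combined the pools of an age, and filtered cells in Seurat 2.3.0 to between 500 and 4000 genes and under 10% mitochondrial UMIs. The annotation release of the counts, and whether depth was equalised, are not stated in the sources used here. Values are raw counts per gene and cell, and the pool of each cell came from the deposited list of cells.

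B cells were cells with Cd79a of at least 3, Lyz2 of at most 4 and Cd3d, Cd3e and Cd3g together of at most 1. The rule, the marker lists and the gene lists were chosen with earlier results of these data known. T cells held at least 2 Cd3 UMIs and no Cd79a. No doublet caller was run. Cells above the 96th percentile of UMIs of their pool were left out in an alternative. UMIs were summed per pool and class and given per 1000000 UMIs (CPM) with 95% exact Poisson intervals, and shares with exact binomial (Clopper-Pearson) intervals. Thinning drew 1000 UMIs per cell with a fixed seed.

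Tests were edgeR 4.0.16 quasi-likelihood fits in R 4.3.3 (TMM, pool as block, Benjamini-Hochberg adjustment, threshold 0.05) on genes whose share of cells with a UMI averaged at least 10% over both classes. Genes of the rule and Ctla4, Ccr1 and Art3 were left out of these fits. Numbers of cells were tested with 1 common dispersion. DESeq2 1.42.0, its size factors, other filters and other sets of pools were alternatives. The fits were tested on simulated data. Named genes were those of the rule and lists, the 15 highest and 15 lowest ratios in old 1, and up to 10 called genes per direction with the smallest adjusted p. Other genes, those of old 2 and of the comparison of old pools among them, were named by the same ranks after their values were seen. The correlation across 5983 genes of the deviations of same-numbered pools from their age means was -0.05. It gave no sign that replicate numbers pair the pools, though a single value cannot exclude a pairing. The test of age within the cells was not made, because young 2 held fewer cells than the minimum of 5 per pool that had been set. Gene positions are those of GENCODE on GRCm38. Some genes of the lists are not reported here.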

Additional observations from a re-analysis of the deposited data

How the results depend on the processing

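The higher share in old blood kept its direction under each alternative. Its log2 change was 5.03 with at least 2 Jchain UMIs, 4.59 with at least 2 S100a6 UMIs, 4.66 without the cells of most UMIs and 4.91 as a share of all cells, all called. It was 4.10 on thinned cells (edgeR adjusted p = 0.11) and ranged from 3.91 to 5.45 when 1 pool was left out. With the replicate number as a block it was 4.43 (edgeR adjusted p = 0.092). Same-numbered pools did not deviate together across genes (r = -0.05).

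Against other B cells, 29 genes were called. The count was 97 with DESeq2 size factors, 19 with DESeq2, 139 with no filter, 56 with 10% of cells in each class, 106 without the cells of most UMIs, 105 with old 1 and 0 with no pool block, where 353 genes had an unadjusted p under 0.05 in edgeR. It was 182 with every pool and 221 with both old pools alone, chosen after seeing the data. DESeq2 shared 7 genes with the 29, and old 1 added kept 22. Splits of higher and lower genes were 8 and 21 in the test as reported, 50 and 47 with size factors and 58 and 48 without the deepest cells.

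Against the Jchain-zero cells, 94 genes became 42 with DESeq2 size factors, 1 with DESeq2, 46 with no filter, 0 with 10% in each class, 35 without the cells of most UMIs, 38 with old 1, 0 with no pool block (159 with an unadjusted edgeR p under 0.05) and 44 with every pool. It was 101 with both old pools alone. A sign change was seen in 3 values, and the cause was not tested. Krt8 was -0.04 against other B cells with both old pools alone, and in DESeq2 against the Jchain-zero cells Nrgn was 1.45 and Socs3 -0.24. Of 321 values of 38 results for named genes, 208 kept direction and call and 110 lost the call.

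Within old 1, genes higher and lower by 2-fold were 0 and 25. They were 21 and 61 with 1 CPM added in place of 10, 39 and 75 with at least 2 Jchain UMIs, and 1 and 8 against the Jchain-zero cells. In old 2, 26 and 61 became 85 and 103 with 1 CPM added, and 26 became 10 against the Jchain-zero cells. The tests without 1 pool and with at least 2 Jchain UMIs could not be fitted for genes, and no immunoglobulin gene is listed to leave out. Depth limits the young cells most, with 53537 UMIs in the 9 of young 1.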
